A study of Mus musculus with 12 samples.

Results

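The genes described here are those that encode the proteins of the cytosolic ribosome in the mouse, and paralogs that share their names. They were chosen by symbol: every gene whose name begins with Rpl or Rps and a digit, together with Rplp0, Rplp1, Rplp2 and Rpsa, leaving out the Rps6k kinases, Rps19bp1 and pseudogenes. Of 88 protein-coding symbols that fit this rule, 83 had a probe, 51 of the large subunit and 32 of the small subunit. All 83 passed the filter on dim probes, out of 25581 genes that passed on 12 arrays. Here and below, counts over all genes also include targets of probes that have no gene symbol. Rpl10l, Rpl32l, Rpl37rt, Rps23rg1 and Rps27rt were not analysed here. RNA came from NIH3T3, an established line of mouse embryonic fibroblasts, after 18 h with 2 µM PP242, 50 nM rapamycin or the solvent DMSO, with 4 arrays for each condition and the replicates described as independent experiments. PP242 competes with ATP for the mTOR kinase and so inhibits both of its complexes, mTORC1 and mTORC2, whereas rapamycin inhibits mTORC1 allosterically. Each compound was given at a single dose and the doses differ, so the compounds are compared here as treatments.

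The ribosome joins a large subunit, which forms peptide bonds, to a small subunit, which reads the mRNA. mTORC1 is known as a master regulator of ribosome production. It acts on rRNA synthesis and ribosome assembly, and it controls the translation of ribosomal protein mRNAs through a terminal oligopyrimidine tract (TOP), a run of pyrimidines that starts with C at the very first base of the mRNA. The arrays measure the amount of each mRNA and not its translation.

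The tract shows in the start sites that RefSeq annotates for these genes. Start-site sequences (build GRCm38.p6) were matched for 63 of the 83 genes. A C at the first base followed by at least 4 further bases that are each C or T was present in 13 of the 63, which is 20.6%, against 3.01% of the 27025 genes in the same table. The windows below run from 10 bases before the annotated start into the transcript, 30 bases in all on the coding strand, and the capitals mark the pyrimidine run at the start. The first 5 are those with the longest such runs, Rplp2 has a short one, and Rpl7l1 and Rpl4, on which the results below turn, have none at the annotated base.
Rpl15: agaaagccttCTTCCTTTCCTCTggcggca
Rpl35: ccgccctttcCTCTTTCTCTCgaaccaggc
Rps10: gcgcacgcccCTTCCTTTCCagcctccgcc
Rps18: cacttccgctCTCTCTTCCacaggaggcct
Rps6: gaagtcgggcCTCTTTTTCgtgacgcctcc
Rplp2: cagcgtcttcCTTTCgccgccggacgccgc
Rpl7l1: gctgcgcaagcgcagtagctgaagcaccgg
Rpl4: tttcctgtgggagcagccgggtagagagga
These windows lie at chr14:18270967-18270996 (minus strand) for Rpl15, chr2:39005112-39005141 (minus) for Rpl35, chr17:27635225-27635254 (minus) for Rps10 and chr17:33955646-33955675 (minus) for Rps18. Those of the others are chr4:86857348-86857377 (minus) for Rps6, chr7:141447641-141447670 (plus) for Rplp2, chr17:46782637-46782666 (minus) for Rpl7l1 and chr9:64173377-64173406 (plus) for Rpl4. An annotated start that is off by a base hides a tract from this count. The motif CCGGAAG, searched on both strands, occurred within the 300 bases around the start of 26 of the 63 genes (41.3%), against 9.93% of all genes in the table.

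Of the 12 arrays, 4 had raised signal on their dim probes and were fitted both in and out. On PP242 1 the 75th percentile of processed signal stood at 21.9 times the 25th, with 13.6 times on PP242 4, 7.12 times on rapamycin 3 and 51.1 times on DMSO 2, against 261 to 420 times on the other 8 arrays. The 8 arrays are PP242 2 and 3, rapamycin 1, 2 and 4, and DMSO 1, 3 and 4. The 12 arrays lay on 3 slides that each held all 3 conditions. Within the 8 arrays, PP242 and DMSO shared slide 1 alone, since slide 2 then held no DMSO array and slide 3 no PP242 array. Of 11 fibroblast markers with a probe, 10 were well above background on all 8 arrays, among them Col1a1 and Vim. Of 13 markers of other cell types with a probe, 7 were above background on none of the 8, including Epcam, Cdh1 and Pecam1, and 1 (Tubb3) on all of them.

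The level of a gene is the log2 processed signal of its brightest probe minus the 75th percentile of the same array, so a gene at 0 lies at that percentile. On the 8 arrays, 82 of the 83 genes were above 0 on every array and 78 averaged at least 4. The exception was Rpl3l, a paralog of Rpl3 known from muscle, at -5.87 and -5.51 with PP242, -5.72, -5.50 and -7.38 with rapamycin, and -5.18, -5.83 and -5.92 with DMSO. Its spot was not well above background on rapamycin 4, and the other 82 genes were above it on all 12 arrays. The median level of the 83 genes was 7.49 and 7.12 on the PP242 arrays, 7.25, 7.36 and 7.15 on the rapamycin arrays, and 7.36, 7.26 and 7.33 on the DMSO arrays. The 2 PP242 arrays thus gave the highest and the lowest value of the 8, and 78 of the 83 genes were higher on PP242 2 than on PP242 3, by a median of 0.37. These values mark how far all of the genes shift together between replicates. The median replicate standard deviation of a member was 0.17 as measured and 0.09 once each array's own ribosomal protein median was subtracted.

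**Figure D1:**
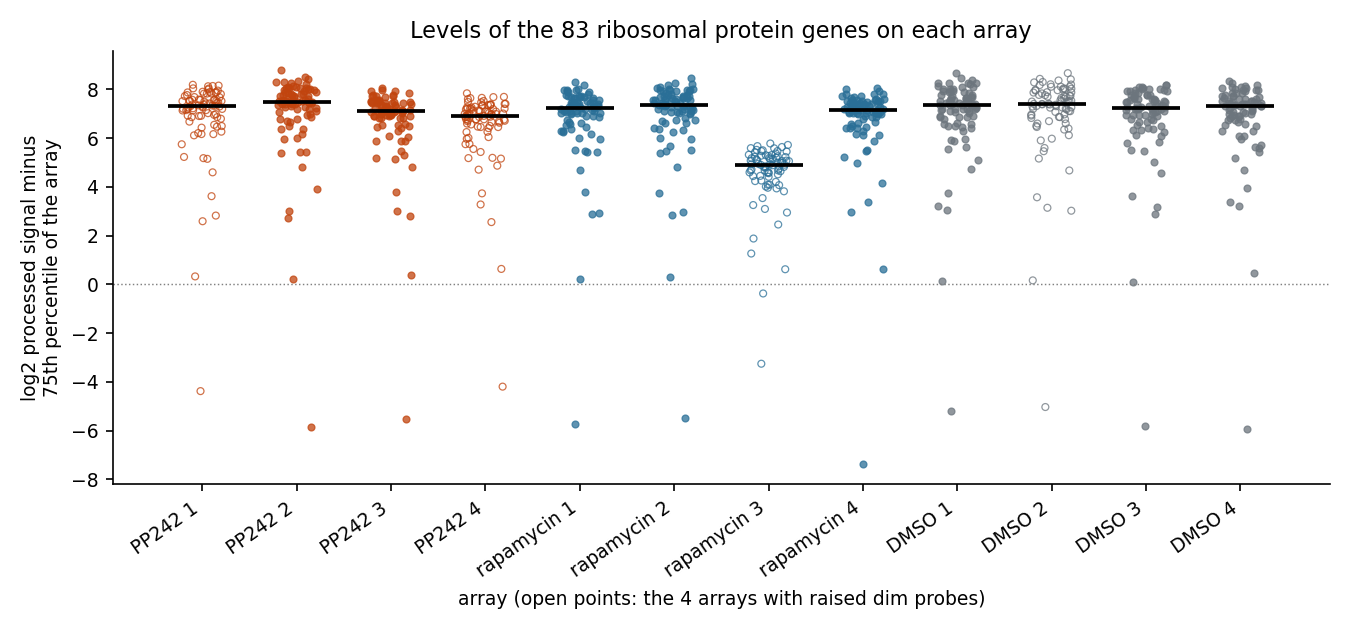
Level of each ribosomal protein gene (points, log2 processed signal minus the 75th percentile of the array) on the PP242, rapamycin and DMSO arrays, with the median as a bar. Open points are the 4 arrays with raised dim probes; rapamycin 3 has a median of 4.90 and the other 11 arrays lie between 6.89 and 7.49.

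With PP242, set against DMSO, the ribosomal protein mRNAs as a group had a median near their DMSO level, and a single gene passed the test. On the 8 arrays (n = 2 PP242 and 3 DMSO), 0 genes rose and 1 fell, Rpl7l1, by limma with Benjamini-Hochberg adjustment over 19669 genes. That is 1.2% of the 83, where 25.9% of all genes tested were called in this comparison, 12.9% higher and 12.9% lower. The share over all genes was 7.01% with slide as a block, 9.86% without PP242 2 and 8.91% without PP242 3. An unadjusted p under 0.05 by limma was found for 3 of the 83 genes, against 37.8% of all genes. The median log2 fold change (PP242 minus DMSO) was -0.02 for the 83 genes, with 39 positive and 44 negative, and -0.01 for all genes. Leaving out PP242 2 gave a median of -0.24 for the 83 genes, and leaving out PP242 3 gave 0.18. The quartiles were -0.10 and 0.09 for the 83 genes, and -0.40 and 0.41 for all genes.

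The precision limits what these values can show. The median standard error of a ribosomal protein gene was 0.16, the median half-width of its 95% interval 0.39, and the interval lay within ±1 on the log2 scale, a 2-fold change, for 82 of 83 genes (98.8%), against 51.1% of all genes. The exception was Rpl3l, with an interval from -1.42 to 1.34. A change below 0.5 in either direction was measured for 83 of 83 genes, against 58.3% of all genes. The groups did not overlap for 9 genes (10.8%), 6 higher and 3 lower with PP242, where 59% of all genes tested had groups that did not overlap, 29.8% higher and 29.2% lower.

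The subunits were then taken apart. The 51 genes of the large subunit had a median of 0.00 and a range from -0.49 to 0.35. The 32 genes of the small subunit had a median of -0.03 and a range from -0.32 to 0.23. By limma 0 of the 32 were called and 0 had an unadjusted p under 0.05, against 25.9% and 37.8% of all genes. Of all 83 genes, 77 lay within 0.25 of no change.

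**Figure D2:**
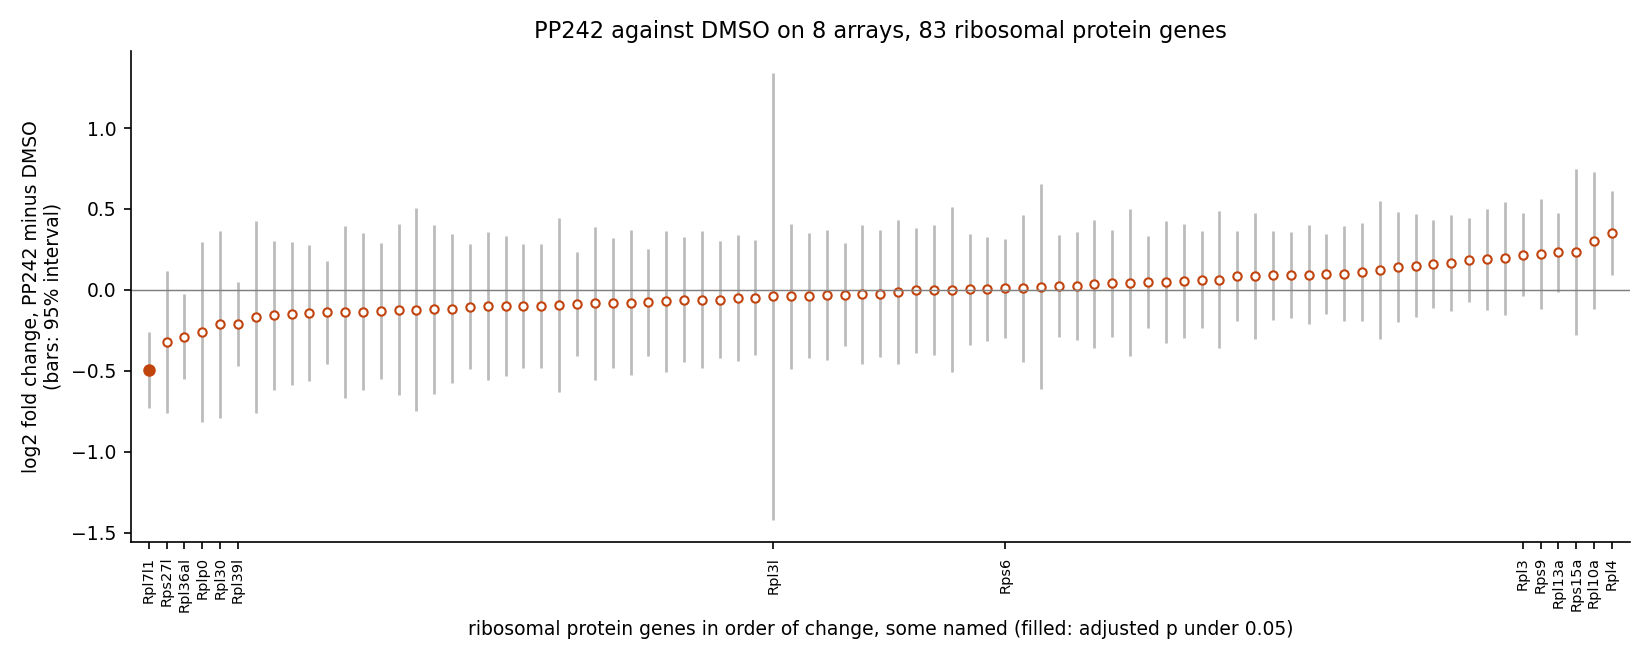
Log2 fold change, PP242 minus DMSO, of the 83 ribosomal protein genes on 8 arrays, in order of size, with 95% intervals from limma as bars and some genes named on the axis. The filled point is Rpl7l1 at -0.49, the 1 gene with an adjusted p under 0.05, and at the other end lies Rpl4 at 0.35.

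Rpl7l1 encodes a paralog of Rpl7, and Rpl7 is a protein of the large subunit. Rpl7l1 counts with the large subunit here by its name alone. It was at 2.71 and 2.81 with PP242, against 3.24, 3.16 and 3.37 with DMSO, so the groups did not overlap. The fall was 0.49 ± 0.10 on the log2 scale (SE, 1.41-fold, 95% interval -0.73 to -0.26, limma adjusted p = 0.0131). The raised PP242 and DMSO arrays lay with their groups, at 2.59 and 2.56 on PP242 1 and 4, and 3.14 on DMSO 2. The raised rapamycin 3 did not, at 0.62 against 2.95 to 2.98 on the other rapamycin arrays. Within the slides, PP242 minus DMSO was -0.59, -0.46 and -0.57 on slides 1 to 3 of the 12 arrays. Raised arrays enter the last 2 of these values, since DMSO 2 was the only DMSO array on slide 2 and PP242 1 the only PP242 array on slide 3. A second, dimmer Rpl7l1 probe fell by 0.69 ± 0.11 (limma adjusted p = 0.0055 over 26022 probes). The call depended on having both PP242 arrays: the adjusted p was 0.106 without PP242 2 (-0.44) and 0.0701 without PP242 3 (-0.54), which leave 1 PP242 array that is assumed to vary like the other groups. With slide as a block it was 0.0918, and with each array centred on its ribosomal protein median, a setting chosen after seeing the data, 0.135.

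The namesake Rpl7 did not pass. It was at 7.71 and 7.13 with PP242 and at 7.58, 7.61 and 7.47 with DMSO, a change of -0.13 ± 0.20 (limma adjusted p = 0.675). The PP242 values lay on either side of the DMSO values. The difference between the paralog and its namesake was not tested.

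Of the 11 listed paralogs, 7 were measured, 1 fell and 6 did not pass, 14.3% called against 25.9% of all genes. Whether the product of each paralog is part of the ribosome was not examined. The median of the 7 was -0.21 and 5 of them were negative. Rpl36al, a paralog of Rpl36a, was at 5.41 and 5.17 with PP242 and at 5.63, 5.48 and 5.63 with DMSO, without overlap (-0.29 ± 0.11, limma adjusted p = 0.103). Rpl36a itself was at 7.28 and 6.96 with PP242 and at 7.02, 6.97 and 6.92 with DMSO (0.15 ± 0.13, limma adjusted p = 0.461), where the groups overlapped. Rpl39l, a paralog of Rpl39 known from testis, was at 5.41 and 5.16 with PP242 and at 5.55, 5.50 and 5.43 with DMSO (-0.21 ± 0.11, limma adjusted p = 0.217). Rpl39 was at 7.41 and 6.81 with PP242 and at 7.08, 6.96 and 6.92 with DMSO (0.12 ± 0.18, limma adjusted p = 0.665). Rps27l, a paralog of Rps27 and a known p53 target, had a change of -0.32 ± 0.18 (limma adjusted p = 0.258), with 6.39 and 5.90 in PP242 cells and 6.58, 6.51 and 6.31 in DMSO cells. Rps27 had a change of 0.05 ± 0.16. Rpl22l1, a paralog of the RNA-binding Rpl22, had a change of 0.14 ± 0.14, beside Rpl22 at 0.09 ± 0.11. Rps4x, the X-linked form of Rps4, was at 0.04 ± 0.18, and Rpl3l is given above.

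**Figure D3:**
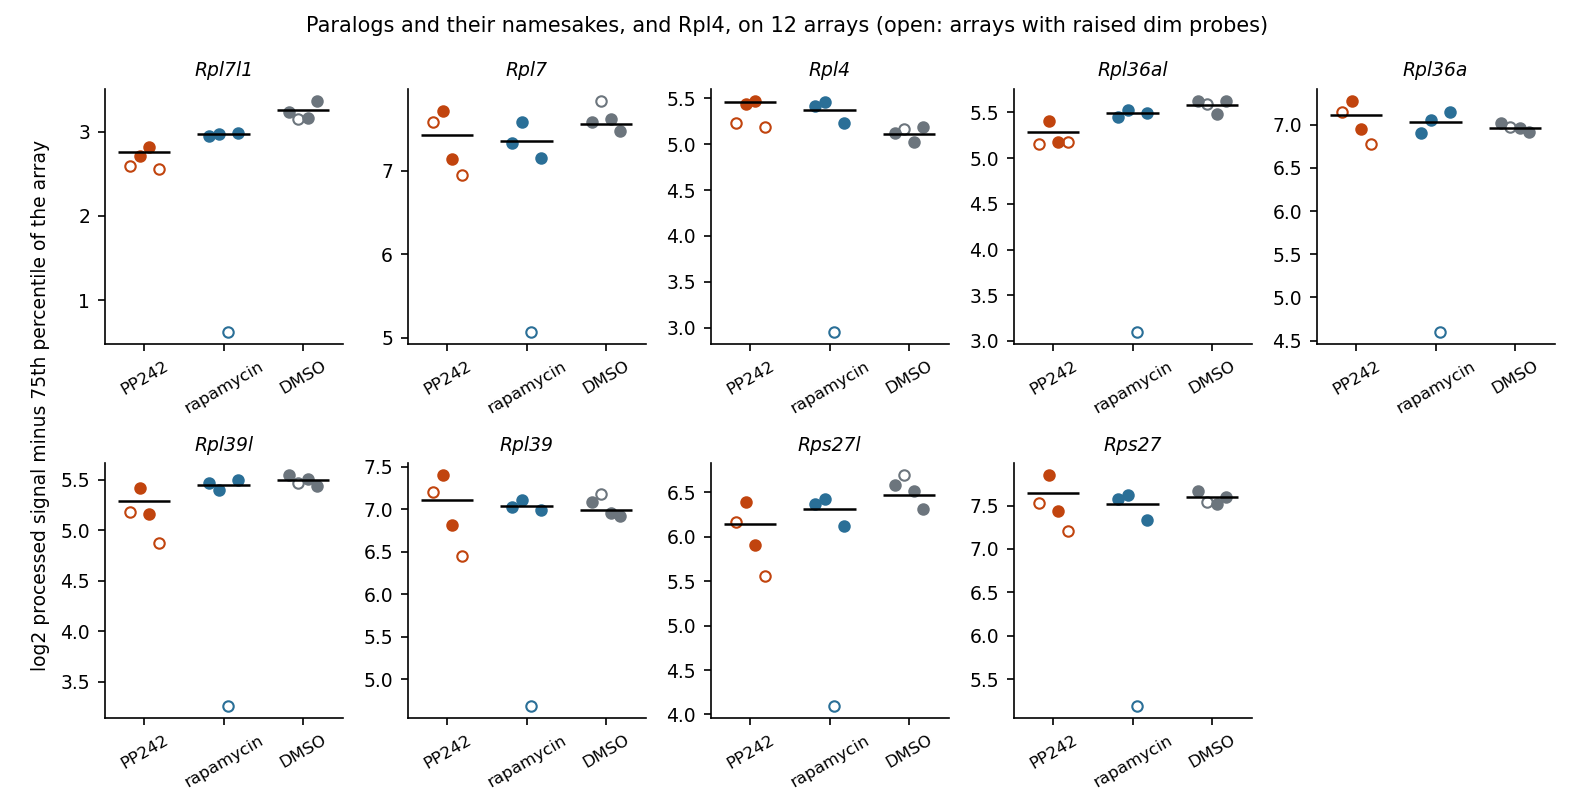
Level of paralogs, their namesakes and Rpl4 in each PP242, rapamycin and DMSO array (points, log2 processed signal minus the 75th percentile of the array), with the mean of the arrays of the 8-array set as a bar and open points for the 4 arrays with raised dim probes. The Rpl7l1 points with PP242, between 2.56 and 2.81, lie below the DMSO points, between 3.14 and 3.37.

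At the other end, Rpl4, a core protein that lines the exit tunnel of the large subunit, was at 5.44 and 5.48 with PP242 and at 5.12, 5.02 and 5.18 with DMSO. The groups did not overlap and the change was 0.35 ± 0.11 (1.28-fold, 95% interval 0.09 to 0.61), with a limma adjusted p of 0.0552, so it did not pass. It passed under 5 of 19 alternatives, among them quantile normalisation (0.49, limma adjusted p = 0.0195) and the deposited log2 table (0.49, limma adjusted p = 0.0115). Rpl10a, a component of the L1 stalk, was at 7.01 and 6.51 with PP242 and at 6.43, 6.37 and 6.56 with DMSO (0.31 ± 0.18, limma adjusted p = 0.263). Rps15a, a protein of the small subunit, had a change of 0.23 ± 0.21 (limma adjusted p = 0.475). It was at 7.06 and 6.97 with PP242 and at 6.86, 6.73 and 6.77 with DMSO, without overlap. Rpl3, which reaches towards the peptidyl transferase centre, had a change of 0.22 ± 0.11 (limma adjusted p = 0.193). In Rpl3 the values 7.47 and 7.36 with PP242 lay above 7.19, 7.09 and 7.31 with DMSO.

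Members with a special place in the ribosome or a role outside it were all measured, and of these 12 genes 0 passed and 0 had an unadjusted p under 0.05 by limma, against 25.9% and 37.8% of all genes. Their median was 0.00. The stalk proteins that recruit translation factors, Rplp0, Rplp1 and Rplp2, had changes of -0.26 ± 0.23, -0.09 ± 0.22 and -0.10 ± 0.18. Rplp0, often used as a reference gene, was at 8.06 and 7.42 with PP242 and at 8.03, 8.01 and 7.97 with DMSO, so the PP242 arrays lay on either side of the DMSO arrays. Rps6, whose phosphorylation by S6 kinase is the standard readout of mTORC1 activity, was at 7.10 and 6.84 with PP242 and at 6.86, 6.97 and 7.06 with DMSO (0.01 ± 0.13, 95% interval -0.29 to 0.31). The mRNA levels of Rps6 overlapped between the groups.

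Rpl5 and Rpl11, which with 5S rRNA bind the p53 ligase Mdm2 when assembly fails, had changes of 0.02 ± 0.13 and -0.01 ± 0.18. Rpl13a, which can leave the ribosome to repress translation, was at 7.30 and 7.15 with PP242 and at 7.11, 6.92 and 6.95 with DMSO (0.23 ± 0.10, limma adjusted p = 0.151), without overlap. Rpsa, also known as the laminin receptor, was at 0.19 ± 0.13 and Rpl10, which joins the large subunit late, at 0.17 ± 0.12. Rps19, the first gene linked to Diamond-Blackfan anaemia, was at 0.09 ± 0.12. Rps3, also known from DNA repair, was at -0.03 ± 0.18 and Rps27a, made as a fusion with ubiquitin, at -0.13 ± 0.18. These genes are spread on both sides of 0.

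Among the probes with the strongest signals, Rps18 was at 8.78 and 8.05 with PP242 and at 8.68, 8.19 and 8.33 with DMSO. The log2 fold changes of Rps18, Rpl41 and Rps28 were 0.02, -0.05 and -0.06. Besides Rpl3l and Rpl7l1, the members with the dimmest brightest probe were Rpl21, Rpl14 and Rpl31, with log2 fold changes of 0.06, -0.04 and 0.09. The level of a probe depends on its sequence, so no order of abundance between genes is drawn from it.

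The next comparison set rapamycin against DMSO. On the 8 arrays (n = 3 each), 0 of the 83 genes passed by limma, where 0.0254% of all genes, 5 of 19669, were called. With so few calls among all genes, the count of called members carries little information. By limma 2 of the 83 had an unadjusted p under 0.05, against 13.1% of all genes. The median log2 fold change (rapamycin minus DMSO) was -0.08 for the 83 genes, with 28 positive and 55 negative, against -0.02 for all genes. The interval lay within ±1 for 82 of 83 genes, against 71.5% of all genes, and the groups did not overlap for 5 genes (6.02%), against 18.6% of all genes.

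The genes with an unadjusted p under 0.05 were Rpl7l1 and Rpl4 again, in a comparison that shares its DMSO arrays with the one above. Rpl7l1 was at 2.95, 2.98 and 2.98 with rapamycin, against 3.24, 3.16 and 3.37 with DMSO (-0.29 ± 0.09, limma adjusted p = 0.266). Rpl4 was at 5.41, 5.46 and 5.23 with rapamycin, against 5.12, 5.02 and 5.18 with DMSO (0.26 ± 0.10, limma adjusted p = 0.33). In each the groups did not overlap, and neither gene passed. Rpl22l1 (0.20 ± 0.13), Rps23 (-0.26 ± 0.17) and Rps27a (-0.13 ± 0.16) were the other genes without overlap, and Rpl27a was at 0.17 ± 0.10. Among genes above background on every array, the lowest changes besides Rpl7l1 were those of Rps2 (-0.32 ± 0.23), Rplp0 (-0.31 ± 0.21) and Rps23. Rps6 was at 6.87, 7.09 and 7.01 with rapamycin and at 6.86, 6.97 and 7.06 with DMSO, a change of 0.03 ± 0.11. Rpl3l had the widest error, at -0.56 ± 0.51.

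The compounds were also compared with each other. On the 8 arrays (n = 2 PP242 and 3 rapamycin), limma called 0 of the 83 genes, where 13.9% of all genes were called. By limma 0 of the 83 had an unadjusted p under 0.05, against 28.9% of all genes. The median log2 fold change (PP242 minus rapamycin) was 0.06, with 64 genes positive and 19 negative, against 0.02 for all genes. It was -0.14 without PP242 2 and 0.26 without PP242 3, so its direction rested on a single PP242 array. The groups did not overlap for 4 genes (4.82%), against 53.5% of all genes: Rpl7l1 at -0.20 ± 0.10, Rpl36al at -0.20 ± 0.11, Rpl3 at 0.19 ± 0.11 and Rpl13a at 0.12 ± 0.10. Rpl7l1 was at 2.71 and 2.81 with PP242 and at 2.95, 2.98 and 2.98 with rapamycin (limma adjusted p = 0.23). The highest difference among genes above background on every array was that of Rps15a, at 0.29 ± 0.21. Rps15a was at 7.06 and 6.97 with PP242 and at 6.30, 7.04 and 6.85 with rapamycin, where the low value is that of rapamycin 1. Rpl6 was at 0.20 ± 0.14. For Rpl4 the difference was 0.09 ± 0.11, with a 95% interval from -0.17 to 0.35. Rps6 differed by -0.02 ± 0.13 (95% interval -0.33 to 0.28).

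With all 12 arrays, 0 of the 83 genes were called and 0 had an unadjusted p under 0.05 by limma in all 3 comparisons. For PP242 against DMSO, 0.387% of all genes were called and 9.05% had an unadjusted p under 0.05. For rapamycin against DMSO these shares were 0% and 1.77%, and for PP242 against rapamycin 0% and 4.14%. The median standard error was 0.50. The median log2 fold change of the 83 genes was -0.14 for PP242 against DMSO, -0.69 for rapamycin against DMSO and 0.54 for PP242 against rapamycin, beside 0.38, 0.18 and 0.26 for all genes. A probe could pass the filter on 12 arrays through the 4 raised arrays alone. With the filter on every array, the median for PP242 against DMSO was -0.002 over all genes and -0.15 over the 82 members that passed. That fit called 0 of the 82 members and 412 of 15933 genes. The values with rapamycin rested on 1 array. On rapamycin 3, 79 genes were lower than the mean of the other rapamycin arrays, by a median of 2.36 over the 80 genes it measured, and its 75th percentile of log2 signal was 12.9, against 9.91 to 10.8 on the other 11 arrays. Without rapamycin 3, the medians were -0.10 for rapamycin against DMSO and -0.04 for PP242 against rapamycin. The fit of PP242 against DMSO then called 2 genes, Rpl7l1 (-0.56, limma adjusted p = 0.00644) and Rpl36al (-0.35, limma adjusted p = 0.0411), where 16% of all genes were called. Within slides 1 to 3, the median of the 83 genes for PP242 against DMSO was 0.15, -0.45 and 0.02.

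The probes that were not the brightest of their gene gave a check within the gene. Of the 83 genes, 30 had more than 1 probe, 119 probes in all. For PP242 against DMSO on 8 arrays, the probes of 27 of these 30 genes lay within 0.5 of each other, and in 13 genes they differed in sign. Among the 119 probes 0 rose and 3 fell, where 26.4% of all probes were called: both Rpl7l1 probes and a dim probe of Rps15a. This Rps15a probe, named after its value was seen, was at -5.49 and -5.49 with PP242 and at -4.21, -4.34 and -3.66 with DMSO (-1.42 ± 0.24, limma adjusted p = 0.00773). These levels are close to those of Rpl3l, the dimmest member. On the raised arrays PP242 1 and 4 the probe was at -2.77 and -1.80, above the DMSO values, and DMSO 2 had no value for it. The brighter Rps15a probe was at 7.06 and 6.97 with PP242, against 6.86, 6.73 and 6.77 with DMSO, the opposite direction. The dim Rps15a probe was also the 1 probe called for PP242 against rapamycin (-0.99 ± 0.24, limma adjusted p = 0.0428), where 14.2% of all probes were called. Which transcripts the dim probe binds is not given in the files. The dimmer probe of Rpl22, also named after its values were seen, was at 3.11 and 3.18 with PP242, against 1.79, 1.85 and 2.82 with DMSO, without overlap (0.99 ± 0.38, limma adjusted p = 0.106). The brighter Rpl22 probe gave the 0.09 above. The third gene with probes more than 0.5 apart was Rpl23, at 0.50 ± 0.19 on its dimmer probe and -0.10 ± 0.16 on its brighter one, and neither passed.

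Other genes of the translation machinery give these values a setting. Their lists, like the members, were chosen with earlier results of the data known, and their differences from the ribosomal protein genes were not tested. Other mRNAs with a known TOP tract, mostly translation factors, had a median of 0.02 for PP242 against DMSO on 8 arrays, with 3 of 23 higher and 2 lower (21.7%, against 25.9% of all genes). The elongation factor Eef2 was at 6.50 and 6.42 with PP242, against 5.92, 5.76 and 5.75 with DMSO (0.66 ± 0.11, limma adjusted p = 0.0073). The initiation factor Eif4b rose by 0.55 ± 0.11 and Eif3f, a subunit of initiation factor 3, by 0.42 ± 0.11. Of 19 alternatives, 4 ended the call of Eef2, 4 that of Eif4b and 12 that of Eif3f. Eef1d, an exchange factor for the elongation factor that delivers tRNA, fell by 0.49 ± 0.12, and the histone chaperone Nap1l1 by 0.49 ± 0.10, calls that 13 and 7 of the 19 alternatives ended. Snhg3, the 1 measured snoRNA host gene of the list, fell by 0.57 ± 0.14 (limma adjusted p = 0.0312), a call that 11 of the 19 ended.

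The biogenesis genes make and assemble rRNA and ribosomal subunits. Of 26 ribosome biogenesis genes measured, 0 rose and 19 fell with PP242, 73.1% against 25.9% of all genes, and their median was -0.58. Nolc1, a nucleolar phosphoprotein that binds snoRNPs, was at 1.84 and 1.46 with PP242, against 3.38, 3.39 and 3.31 with DMSO (-1.71 ± 0.19, limma adjusted p = 0.00173). Nhp2, a core protein of the pseudouridylation snoRNPs, was at 3.67 and 3.63 with PP242, against 4.92, 4.76 and 5.01 with DMSO (-1.25 ± 0.12). Rrs1, which works in assembly of the large subunit, fell by 1.06 ± 0.15, and Bysl, which works on the small subunit, by 0.70 ± 0.09. Nop2, an rRNA methyltransferase, fell by 0.72 ± 0.11, and the assembly factors Rrp9 and Wdr12 by 0.62 and 0.47. The calls of Nolc1, Nhp2 and Bysl held under all 19 alternatives, while 1 ended that of Rrs1, 2 that of Nop2, 6 that of Rrp9 and 5 that of Wdr12. With rapamycin, 0 of the 26 passed (11 had an unadjusted p under 0.05 by limma), with a median of -0.27 and 26 of 26 negative. Of all genes, 0.0254% passed in that comparison, 13.1% had an unadjusted p under 0.05 and 53% were negative. PP242 against rapamycin gave 5 of 26 lower, 19.2% against 13.9% of all genes, among them Nolc1 (-1.33 ± 0.19) and Nhp2 (-0.85 ± 0.12).

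The 78 genes of the mitochondrial ribosome, a separate set of proteins encoded in the nucleus, had a median of -0.26 for PP242 against DMSO, with 2 higher and 18 lower (25.6%, against 25.9% of all genes). For rapamycin against DMSO their median was -0.15, with 0 called and 21 at an unadjusted p under 0.05 by limma, where 0.0254% and 13.1% of all genes were. With all 12 arrays 0 genes of any of these lists were called in any comparison by limma, where at most 0.387% of all genes were. For PP242 against DMSO, 5 of 26 biogenesis, 3 of 78 mitochondrial ribosome and 0 of 23 other TOP genes had an unadjusted p under 0.05. Of all genes, 9.05% had one. For rapamycin against DMSO and for PP242 against rapamycin, 1 biogenesis gene was at an unadjusted p under 0.05 in each. Of all genes, 1.77% and 4.14% were.

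**Figure D4:**
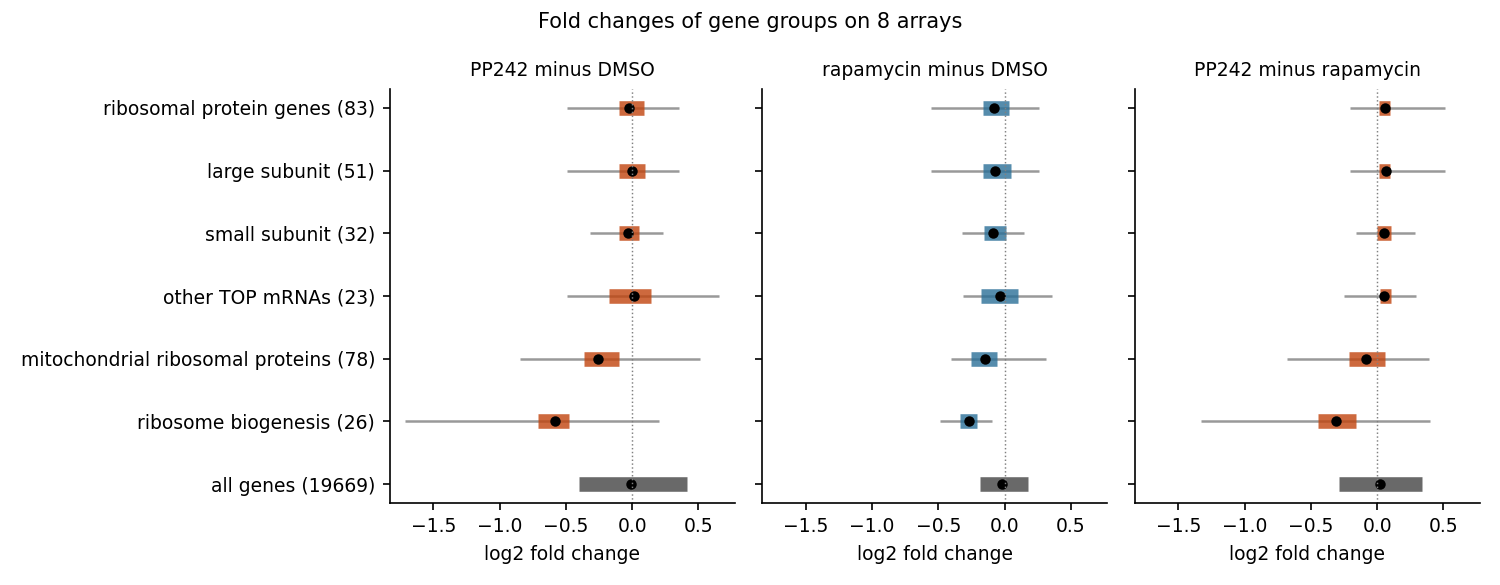
Log2 fold changes on 8 arrays for PP242 minus DMSO, rapamycin minus DMSO and PP242 minus rapamycin, with the number of genes measured in brackets. Dots are medians, thick bars run between the quartiles and thin lines the full range (not drawn for all genes); the ribosomal protein genes have medians of -0.02, -0.08 and 0.06 and the ribosome biogenesis genes -0.58, -0.27 and -0.31.

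The genes were last split by the pyrimidine tract at the annotated start. For PP242 against DMSO the 13 genes with a tract at the annotated start, Rps6, Rplp2, Rpl15, Rps10 and Rps18 among them, had a median of 0.02 and a range from -0.16 to 0.23. The other genes with a start-site sequence had a median of -0.03. For rapamycin against DMSO the medians were -0.05 with a tract at the annotated start and -0.08 without one there. For PP242 against rapamycin they were 0.07 and 0.06. Genes without one there may still carry a TOP tract, since a start annotated off by a base hides it. The split therefore cannot show what the tract does, and these values are a description with no test.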

How the data were processed

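The scanner files deposited for the 12 one-colour arrays hold linear intensity values per spot. Per the file headers, Agilent Feature Extraction (version 10.5.1.1; the submitters' processing notes name 10.1) had subtracted background from the processed signal. The table the authors deposited beside them is on a log2 scale, with column medians between 8.54 and 8.56 and unstated scaling. It served as an alternative only. Per the labels' protocols, RNA was amplified with a whole transcriptome kit and labelled with Cy3. The sample labels give 2 µM PP242 and the treatment protocol 2 mM; 2 µM is used.

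Spots marked as outliers (1.52%) and control spots were left out and spots of a probe averaged, which left 1 array without a value for Rpl22l1, Rpl32, Rpl9 (rapamycin 3) and Rps4x (rapamycin 4). No saturated spot was found. The log2 processed signal minus the array's 75th percentile was tested with limma 3.58.1 (R 4.3.3; two-sided, threshold 0.05), with the 3 conditions sharing 1 estimate of the spread. A probe was kept if 4 or more of 12 arrays (2 or more of the 8) had it well above background, and each gene took its brightest probe. The 8 arrays have a 75th percentile at least 100 times the 25th. Of 41174 probes, 24844 had 1 mouse symbol through RefSeq, 0 several and 16330 none. Probes with none were grouped by the systematic name the array gives them, and each such name that passed the filter counts among all genes. The script was tested on simulated data. Further software was matplotlib 3.10.9, numpy 2.4.6, pandas 2.3.3, Python 3.11.15 and the R package data.table (1.17.8). Precision is limited by the number of arrays.

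Named genes are called members, the 4 highest and 4 lowest changes per comparison on 8 arrays, all measured paralogs and members with a special role, the 5 brightest and 5 dimmest, and up to 4 genes by adjusted p in each other list. Some members that meet this rule are not reported by name here. The members, lists and rules were chosen with earlier results of these data known. Alternatives were other scalings, signals, filters, probe rules, blocks, variance models and leaving out each array.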

Additional observations from a re-analysis of the deposited data

Results flagged for a closer look

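In groups of 4 arrays, a lowest or highest array was marked where its gap to the nearest other array took up most of the range of the group (Dixon's test at 95%). Of 100 groups, over 33 named members and the median of all ribosomal protein genes, 30 were marked, and 26 of the marks fell on rapamycin 3. Chance marks about 1 in 20 of independent groups, but these groups share their arrays, so the count cannot be held against that rate. The 26 marks are 1 observation on 1 array and not separate results of the genes. The 75th percentile subtracted from every gene was 12.9 on rapamycin 3, against 10.2 to 10.7 on the other rapamycin arrays. The median level of the 83 genes was 4.90 on rapamycin 3 and 7.15 to 7.36 on the other rapamycin arrays. The levels on rapamycin 3 were 4.99 for Rpl10, 4.21 for Rpl10a, 4.79 for Rpl11, 4.85 for Rpl13a, 2.46 for Rpl27a, 4.59 for Rpl3, 1.88 for Rpl31, 3.10 for Rpl36al and 3.26 for Rpl39l. They were 2.95 for Rpl4, 5.72 for Rpl41, 5.06 for Rpl5, 4.60 for Rpl6, 0.62 for Rpl7l1, 5.26 for Rplp1, 5.31 for Rplp2, 5.58 for Rps18 and 3.54 for Rps19. For Rps23 the level there was 5.59, for Rps27a 4.45, for Rps27l 4.09, for Rps28 5.78, for Rps3 5.12, for Rps6 4.56 and for Rpsa 3.97. In each of these genes rapamycin 3 was the lowest of the 4 rapamycin arrays.

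The other 4 marks were single genes on single arrays. Rpl36al was at 5.41 on PP242 2, above 5.15 to 5.18 on the other PP242 arrays. Rpl21 was at 0.48 on DMSO 4, Rpl5 at 7.73 on DMSO 2 and Rps23 at 8.25 on DMSO 1, each the highest of the DMSO arrays.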

How the results depend on the processing

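The median half-width of a member's 95% interval for PP242 against DMSO was 0.39 (log2) on 8 arrays, which limits the changes that could be seen. In all, 6474 values of named genes were recomputed: 6288 kept their side of the threshold, 97 lost a call, 84 gained one and 5 turned direction as they were called. The 5 came from array weights on 12 arrays: Rpl4 0.34, Eef2 0.33 and Eif4b 0.33 for rapamycin against DMSO, and Rpl7l1 -0.22 and Nap1l1 -0.29 for PP242 against rapamycin. For PP242 against DMSO on 8 arrays, the count of 1 member became 2 with quantile normalisation, with the filter on every array and with an intensity trend, 3 with the deposited log2 table, and 0 with slide as a block or centred on the ribosomal protein median. Leaving out 1 array gave counts of 0 to 2 and medians of -0.24 (without PP242 2) to 0.18 (without PP242 3), and for PP242 against rapamycin medians of -0.14 to 0.26. On 12 arrays the count of 0 for PP242 against DMSO became 1 with only those groups fitted, where 2832 of 25581 genes were called. With array weights it became 4, where 9424 of all genes were called. Of these 4, Rpl10a (0.45), Rpl4 (0.36) and Rpl3 (0.27) were higher and Rpl7l1 (-0.47) was lower. It was 0 to 2 when 1 array was left out (2 without rapamycin 3). With array weights the count was 2 for rapamycin against DMSO and 1 for PP242 against rapamycin. The median for PP242 against DMSO on 12 arrays was -1.01 with median centring, and it turned positive with quantile normalisation (0.0824), the unsubtracted signal (0.0695), normexp (0.0695), the deposited table (0.0796) and array weights (0.0481). That of rapamycin against DMSO, -0.69, was 0.0492 with quantile normalisation, 0.0504 with the unsubtracted signal, 0.0504 with normexp and 0.0455 in the deposited table, and that of PP242 against rapamycin, 0.54, was 0.0269 to 0.0395 under the same settings. The cause was not tested. The count over all genes for PP242 against DMSO went from 1378 to 6103 on 8 arrays (main value 5087) and from 0 to 9424 on 12 (99), for rapamycin against DMSO from 0 to 96 (5) and 0 to 2945 (0), and for PP242 against rapamycin from 469 to 3466 (2735) and 0 to 7532 (0).

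On 8 arrays the deviations of same-numbered arrays from their group means correlated at 0.45, 0.12, 0.62 and -0.25. Of these pairs 1 was negative. The main fit treated the arrays as unpaired, and these values do not settle whether a number marks a shared experiment. Postn, picked after its values were seen, was at -6.5 on DMSO 4, -7.3 on rapamycin 4 and -3.0 on PP242 4. On the other arrays it was at -0.79 to 0.75. The 8-array set holds replicate 4 of DMSO and rapamycin and not of PP242. With the replicate block the count of 1 member for PP242 against DMSO on 8 arrays became 0 (Rpl7l1 -0.45, limma adjusted p = 0.0788). Normexp was run on the median spot signal.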
